A study of Mus musculus with 4 samples.

Results

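Mouse genes whose symbol is Zfp followed by a number encode zinc finger proteins. The peaks described here were chosen by symbol and gene type alone: peaks annotated to a protein-coding gene with such a symbol, with Zfp42 and Zfp57 (6 peaks) left out. This gave 43 peaks listed under 36 genes, of 4088 H3K27ac peaks in all and beside 2428 other peaks listed under protein-coding genes. The 6 peaks of Zfp42 and Zfp57 are counted among these other peaks. H3K27ac marks active promoters and enhancers, and its distribution was measured by ChIP-seq in mouse embryonic stem cells (mESCs, line Sv129) cultured without folate (0 mg/L, FA0) or with 4 mg/L folate (FA4). Each condition had 1 immunoprecipitated (IP) library and 1 input library, so 4 libraries in all and no replicates. The serum-supplemented DMEM was shared by both conditions, and the sources used here do not say whether the serum was depleted of folate.

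The peak list was read as regions with more H3K27ac in the FA4 IP than in the FA0 IP, which makes FA0 the lower condition at every peak. The order was inferred from the names the study gives to the same promoter peaks, since the table itself does not name its control. The study's text describes the other direction, a slight gain of H3K27ac under folate deficiency, and with the order turned round all differences below would change sign. For each peak, 3 quantities are given. The FA4 pileup is the number of fragments stacked at the summit, the FA0 background is the local FA0 level estimated by the peak caller and recomputed here from pileup and fold, and the fold enrichment runs FA4 over FA0 with 1 added to each side. The −log10 q is the peak caller's own measure over 1 pair of libraries. As nothing was replicated, the differences carry no check against replicate spread, and p-values between conditions are not given. Intervals cover counting error only. A gene that is not listed may be unmarked, equal in both libraries, below the peak caller's threshold or higher in FA0. It may also lie in sequence where reads match several places, or beside a peak filed under a neighbour. Apart from the last, these cases cannot be told apart from this list alone. The study's peaks of each IP over its own input were not used here. Of 7 genes that mark mESCs, Pou5f1, Nanog, Sox2 and Dppa5a had a peak in the list, with FA4 pileups of 96, 85, 104 and 58 fragments, and Esrrb, Klf4 and Tfcp2l1 had none. Since 9.23% of all protein-coding genes had a peak, and a gene equally marked in both conditions has none, this is only a partial check of cell type.

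Zinc finger proteins of the C2H2 type bind DNA through tandem fingers, and they form one of the largest families of transcription factors in the mouse. Many carry a KRAB domain, which recruits Trim28 and, through it, the histone methyltransferase Setdb1, and in mESCs this machinery silences retrotransposons. The KRAB genes multiplied by local duplication, so that many lie in clusters of related copies. Other members have no KRAB domain and act as activators, ubiquitin ligases or mitotic factors. The Zfp symbols therefore join genes of unlike function, and most of the members below have no settled role.

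The RefSeq start-site windows of 7 member genes are shown, since these are the genes with a promoter summit within 500 bp of a RefSeq start. Each window runs from 250 bases before to 50 bases after the start in GRCm38.p6, the assembly of mm10, written 5′ to 3′ on the gene's strand. Capitals mark matches, on either strand, to the ETS core CCGGAAG, the GC box GGGCGG, the YY1 core ATGGCGG, the CCAAT box CCAAT or the E-box CACGTG. A match is a stretch of letters and not a site of binding.
Zfp936, chr7:43177340-43177639, plus strand: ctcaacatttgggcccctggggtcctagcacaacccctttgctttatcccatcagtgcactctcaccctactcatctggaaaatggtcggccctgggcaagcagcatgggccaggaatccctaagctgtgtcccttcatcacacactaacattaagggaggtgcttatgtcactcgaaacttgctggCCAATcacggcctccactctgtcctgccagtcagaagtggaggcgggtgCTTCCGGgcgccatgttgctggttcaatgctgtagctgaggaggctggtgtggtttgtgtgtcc
Zfp207, chr11:80383029-80383328, plus strand: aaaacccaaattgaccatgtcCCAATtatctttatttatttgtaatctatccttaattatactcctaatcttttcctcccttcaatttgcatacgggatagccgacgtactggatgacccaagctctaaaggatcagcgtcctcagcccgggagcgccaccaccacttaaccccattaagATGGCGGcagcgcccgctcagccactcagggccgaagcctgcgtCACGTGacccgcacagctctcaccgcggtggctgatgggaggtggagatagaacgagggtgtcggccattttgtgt
Zfp62, chr11:49203042-49203341, plus strand: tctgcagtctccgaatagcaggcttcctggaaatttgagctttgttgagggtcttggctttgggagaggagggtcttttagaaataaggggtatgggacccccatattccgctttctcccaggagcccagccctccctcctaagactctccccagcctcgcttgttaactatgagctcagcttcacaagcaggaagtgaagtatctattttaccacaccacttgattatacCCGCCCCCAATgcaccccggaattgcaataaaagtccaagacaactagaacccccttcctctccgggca
Zfp689, chr7:127449109-127449408, minus strand: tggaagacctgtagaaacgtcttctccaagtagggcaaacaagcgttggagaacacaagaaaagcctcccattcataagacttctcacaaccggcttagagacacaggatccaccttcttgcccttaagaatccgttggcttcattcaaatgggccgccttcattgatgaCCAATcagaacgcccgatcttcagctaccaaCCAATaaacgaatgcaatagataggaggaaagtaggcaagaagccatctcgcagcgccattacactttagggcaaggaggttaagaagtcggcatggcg
Zfp961, chr8:71950816-71951115, plus strand: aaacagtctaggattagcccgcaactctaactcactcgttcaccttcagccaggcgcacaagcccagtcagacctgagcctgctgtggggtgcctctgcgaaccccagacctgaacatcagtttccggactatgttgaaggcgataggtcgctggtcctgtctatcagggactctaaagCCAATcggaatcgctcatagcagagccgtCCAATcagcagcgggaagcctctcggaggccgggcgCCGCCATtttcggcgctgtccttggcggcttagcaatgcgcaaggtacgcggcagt
Zfp598, chr17:24669437-24669736, plus strand: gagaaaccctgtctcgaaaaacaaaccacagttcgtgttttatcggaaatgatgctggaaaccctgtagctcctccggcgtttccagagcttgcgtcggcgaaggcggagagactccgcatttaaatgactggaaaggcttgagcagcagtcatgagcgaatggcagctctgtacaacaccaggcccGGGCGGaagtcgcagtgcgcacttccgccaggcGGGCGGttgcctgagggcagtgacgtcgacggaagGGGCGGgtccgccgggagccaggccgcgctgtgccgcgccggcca
Zfp780b, chr7:27979108-27979407, minus strand: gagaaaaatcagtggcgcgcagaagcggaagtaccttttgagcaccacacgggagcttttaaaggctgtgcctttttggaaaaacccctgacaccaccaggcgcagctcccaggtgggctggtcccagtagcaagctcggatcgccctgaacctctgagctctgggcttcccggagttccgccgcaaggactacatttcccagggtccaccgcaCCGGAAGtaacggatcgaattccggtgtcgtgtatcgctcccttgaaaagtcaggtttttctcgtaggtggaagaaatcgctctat
The windows differ in their elements. That of Zfp598 holds 3 GC boxes and 29 CpG dinucleotides, whereas that of Zfp936 holds an ETS core, a CCAAT box and 6 CpG dinucleotides. In the Zfp62 window a GC box and a CCAAT box stand side by side without overlap. The Zfp207 window has a CCAAT box, a YY1 core and an E-box, and the Zfp780b window has an ETS core alone. Zfp689 and Zfp961 have 2 CCAAT boxes each, with a YY1 core besides at Zfp961. The Zfp62 and Zfp598 peaks overlapped their windows, and the summits at Zfp936, Zfp207, Zfp961 and Zfp780b lay 381, 293, 355 and 475 bp downstream of the RefSeq start, beyond the end of the window. The Zfp689 summit lay 386 bp upstream of its start, before the window.

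Promoters took the larger share of the Zfp peaks. Of the 43 peaks, 27 (62.8%, exact binomial 95% interval 46.7 to 77.0%) lay within 3 kb of a start site, against 1154 of 2428 (47.5%, 45.5 to 49.5%) for the other protein-coding genes. Within the 27 promoter peaks, 22 were within 1 kb, 3 at 1 to 2 kb and 2 at 2 to 3 kb. The remaining 16 peaks comprised 11 in introns, 3 in distal intergenic sequence, 1 in an exon and 1 in a 3′ UTR. The intervals of the Zfp and other shares overlap. In terms of genes, 22 of the 36 had a promoter peak and 14 had peaks outside promoters only.

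The share of Zfp genes with a peak was close to that of all protein-coding genes. RefSeq lists 395 protein-coding genes that fit the rule, and 21 of them (5.32%, 3.32 to 8.01%) had a promoter peak, against 4.73% of all protein-coding genes. Peaks of any class fell on 35 (8.86%), against 9.23% of all genes. Promoter peaks with a −log10 q of at least 3 fell on 11 (2.78%), against 2.95%. These shares are near the background and are not a result about Zfp genes. Zfp989, the member gene that RefSeq does not list under this symbol, is outside these counts.

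Zfp143 had the tallest and most strongly called peak of the group. Zfp143 (ENSMUSG00000061079) encodes a promoter-binding activator that also takes part in chromatin looping. At chr7:110060923-110061300 its FA0 background was 53.2 fragments and its FA4 pileup 115 (exact Poisson 95% interval 94.9 to 138), a fold of 2.14 with a −log10 q of 8.35. The summit lay 131 bp upstream of the listed start. The fold is below the median of the Zfp promoter peaks although the call is the highest, since both libraries were high there.

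Further genes of known function had tall promoter peaks with folds near 2. The human counterpart of Zfp207, BuGZ, is a partner of Bub3 at the mitotic spindle. Its promoter at chr11:80383463-80383831 had 38.7 fragments in FA0 and 78 in FA4 (61.7 to 97.3), a fold of 1.99. Zfp532, whose human counterpart works in a complex with those of Zfp687, Zfp592 and Zmynd8, had 28.9 fragments in FA0 and 66 in FA4 (fold 2.24). Zfp568, a KRAB protein that represses a placental transcript of Igf2, had 34.6 in FA0 and 65 in FA4 (fold 1.85), with a summit 547 bp upstream of the listed start. A peak near the start of Zfp687 was listed under the non-coding transcript 4930481B07Rik and is not counted among the 43. It had 32.9 fragments in FA0 and 74 in FA4 (fold 2.21), with its summit 466 bp from the Zfp687 start. Zfp532 and Zfp687 thus stood at like levels in both libraries.

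Zfp598, an E3 ubiquitin ligase that senses collided ribosomes, stood at the weak end of the list. Its promoter had 25.8 fragments in FA0 and 47 in FA4 (34.5 to 62.5), a fold of 1.79 with a −log10 q of 1.33, just past the peak caller's threshold. Zfp410, which activates the nucleosome remodeler gene Chd4, had 1.60 fragments in FA0 and 9 in FA4 (4.12 to 17.1). That FA0 value is the lowest that occurs in the table, so the fold of 3.84 at Zfp410 rests on 9 fragments. Zfp131, a BTB zinc finger gene, had 4.63 in FA0 and 19 in FA4 (fold 3.55) at 1443 bp downstream of its listed start, and a second listed peak, in an intron of another gene, with 1.99 in FA0 and 12 in FA4. Zfp524, whose human counterpart binds telomeres, had 14.6 in FA0 and 38 in FA4 (fold 2.51). Zfp598 and Zfp524 are outside the naming rule and were added after their values were seen, for their known roles. Tall promoters with small folds and low promoters with larger ones thus stood side by side among the genes of known role. The calling threshold favours this, since low peaks are called only with larger folds.

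Of 31 Zfp genes listed as having a known role, 7 (22.6%, exact binomial 95% interval 9.59 to 41.1%) had a peak, against 9.23% of all protein-coding genes. A promoter peak was found at 4 of the 31 (12.9%, 3.63 to 29.8%), namely Zfp131, Zfp143, Zfp207 and Zfp568, against 4.73% of all genes. The list was picked by hand with earlier results of these data known, and nothing is read from these shares. Zfp423, Zfp521 and Zfp710 had peaks outside promoters only. No peak was listed under the other 24, among them Zfp281 and Zfp462, regulators of pluripotent cells, Zfp36, which promotes mRNA decay, and Zfp809, which silences retroviruses in mESCs.

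Several strongly called promoter peaks belonged to genes with little known of them. Zfp936 on chromosome 7 had 29.6 fragments in FA0 and 74 in FA4 (58.1 to 92.9), a fold of 2.45 and a −log10 q of 7.05, second to Zfp143. Zfp407 had 16.9 in FA0 and 50 in FA4 (37.1 to 65.9), a fold of 2.84. At Zfp574 the values were 24.8 in FA0 and 62 in FA4 (47.5 to 79.5), a fold of 2.44. Each of these summits lay close to the listed start, downstream at Zfp936 (348 bp) and upstream at Zfp407 (295 bp) and Zfp574 (541 bp). Zfp59 had 15.5 in FA0 and 45 in FA4 (fold 2.79), and Zfp989 had 6.68 in FA0 and 28 in FA4 (18.6 to 40.5, fold 3.77). Their summits lay farther into the gene, at 1066 and 1724 bp downstream.

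**Figure D1:**
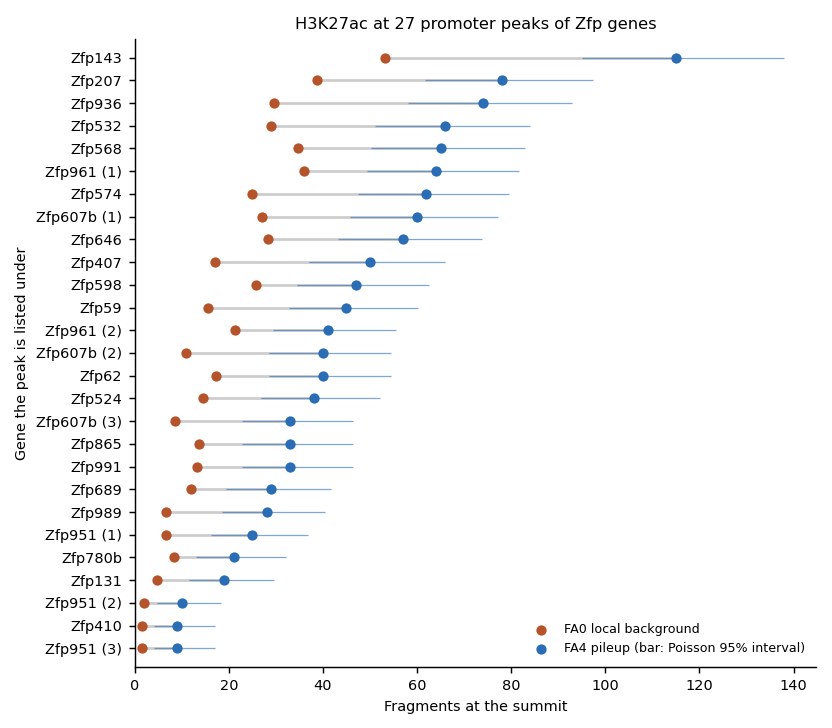
Level at the 27 promoter peaks of Zfp genes, 1 line per peak, ordered by FA4 pileup, with fragments at the summit on the x axis. Orange points are the FA0 local background and blue points the FA4 pileup with its exact Poisson 95% interval. Zfp143 is at the top with 53.2 in FA0 and 115 in FA4, and Zfp410 and a Zfp951 peak are lowest with 1.60 in FA0 and 9 in FA4. Numbers in brackets tell apart the peaks of 1 gene.

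The remaining promoter peaks are given to account for every member and were not picked by the naming rule. At Zfp646 there were 28.4 fragments in FA0 and 57 in FA4. Zfp62 had 17.2 in FA0 and 40 in FA4, with the summit 26 bp upstream of the start, the nearest of the 27. Zfp865, Zfp991 and Zfp689 had FA0 backgrounds of 13.7, 13.1 and 11.97 and FA4 pileups of 33, 33 and 29. Their folds were close together, at 2.32, 2.41 and 2.31.

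Zfp607b, Zfp951, Zfp961 and Zfp131 had more than 1 peak. Zfp607b had 4 peaks within 6498 bp of chromosome 7, 3 called as promoter and 1 in intron 4 of 5. In order along the chromosome, the promoter peaks had 8.59, 10.98 and 26.97 fragments in FA0 and 33, 40 and 60 in FA4, and the intronic peak had 9.31 in FA0 and 30 in FA4. Their folds were 3.54, 3.42, 2.18 and 3.01, so the tallest of the 4 had the smallest fold. The peaks were wide, 1111, 591, 732 and 1066 bp, against a median of 369 bp over the Zfp promoter peaks. The 3 promoter summits lay 17136 to 20550 bp downstream of the RefSeq start of Zfp607b, so the start site used for the annotation was another one.

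Zfp951 had 3 promoter peaks over 30891 bp of chromosome 5. Its tallest had 6.68 fragments in FA0 and 25 in FA4 (fold 3.38), 735 bp downstream of the RefSeq start. The others had 1.93 and 1.60 in FA0 and 10 and 9 in FA4, over 10 kb from that start. At Zfp961 a pair of promoter peaks 1819 bp from end to end had 36.0 and 21.2 in FA0 and 64 and 41 in FA4, with folds of 1.75 and 1.89, among the smallest of the group. Clustered genes such as Zfp607b and Zfp607a are close copies. How reads with several matches were placed is not given in the sources used here, so a peak at such a gene is uncertain and may hold reads of its copies.

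The median fold was smaller at Zfp promoters than at other promoters, with a wide interval at 27 peaks. Over the 27 peaks the median FA0 background was 15.5 and the median FA4 pileup 40, against 12.4 in FA0 and 36 in FA4 over 1154 promoter peaks of other protein-coding genes. The median fold was 2.41 (order-statistic 95% interval 2.18 to 3.38) for Zfp genes and 3.06 (2.97 to 3.15) for the others. A fold under 2 was seen at 6 of 27 Zfp peaks (22.2%, 8.62 to 42.3%) and at 90 of 1154 others (7.80%, 6.32 to 9.50%). A fold of at least 3 was seen at 8 of 27 (29.6%, 13.8 to 50.2%) and at 600 of 1154 (52.0%, 49.1 to 54.9%). Over all 27 peaks the interval of the Zfp median holds the median of the others, and the intervals of both shares overlap at their ends. Peaks of 1 gene are not independent. With 1 peak per gene (22 Zfp peaks) the median was 2.38 (2.14 to 2.84), and the others' 3.13 lay outside that interval. With an FA0 background of at least 5, added after seeing the data, it was 2.32 (2.14 to 2.51) against 2.62. In the other alternatives the interval held the others' median.

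The fold moved with the background at all promoters, so the sets were also read at like backgrounds. The calling threshold sets part of this relation, since a low background needs a larger fold to be called. The lowest fold among the other promoters was 2.83 under 5 fragments and 1.53 at 40 to 100. The background is also computed from the fold. Where the FA0 background was 20 to 40 fragments, the median fold was 1.98 over 10 Zfp peaks and 2.42 over 346 others, with quartiles of 1.86 to 2.23 and 2.07 to 2.74. At 10 to 20 fragments it was 2.46 over 8 Zfp peaks and 2.72 over 250 others. The order was the other way at 5 to 10 fragments, with 3.46 over 4 Zfp peaks and 3.15 over 118 others. At 40 to 100 fragments the single Zfp peak, at Zfp143, had 2.14 and the 46 others a median of 2.06. Under 5 fragments it was 3.802 over 4 Zfp peaks and 4.12 over 394 others. No Zfp promoter peak exceeded a fold of 3.84, and the other promoters reached 10.4. These are maxima over 27 and 1154 peaks, and the larger set can reach further by its size alone, so nothing is read from them.

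**Figure D2:**
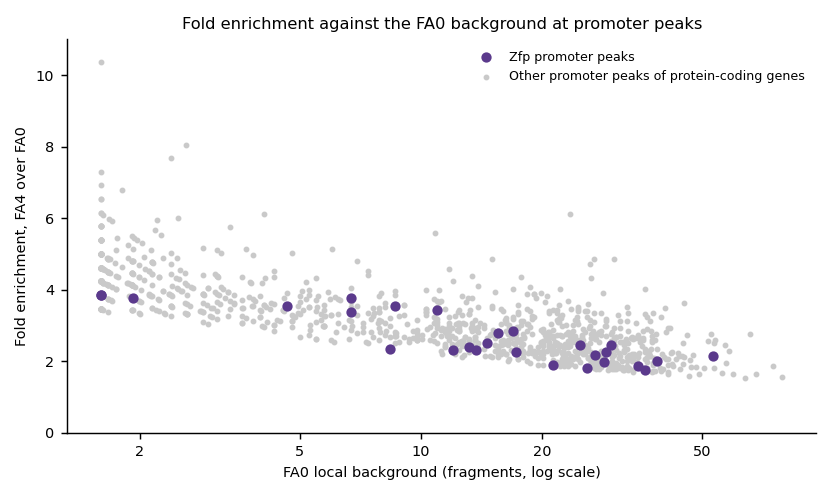
Fold enrichment, FA4 over FA0 (y axis), against the FA0 local background in fragments (x axis, log scale) at promoter peaks. Purple points are the 27 Zfp peaks and grey points the 1154 peaks of other protein-coding genes. The fold falls with the background in both sets, in part because a low background needs a larger fold to be called. The Zfp points with a background of 20 to 40 fragments lie mostly in the lower part of the grey cloud, with a median of 1.98 against 2.42.

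Summits at Zfp promoters fell on both sides of the listed start in near-equal number. Of the 27 summits 13 (48.1%, 28.7 to 68.1%) were downstream, against 729 of 1154 (63.2%, 60.3 to 66.0%) at other protein-coding promoters. Between 50 and 500 bp from the start there were 8 downstream and 8 upstream, against 377 and 181 at the other promoters. The interval for the Zfp peaks holds the share of the others. Acetylated nucleosomes usually flank a start site with the downstream nucleosome the stronger. The enzymatically digested fragments can be longer than a single nucleosome, which limits how finely a summit is placed. Which start is listed decides the side: of 17 promoter peaks whose gene had a RefSeq window, 7 were within 500 bp of the RefSeq start and 5 were over 10 kb away, the 5 all at Zfp607b and Zfp951. Measured from the RefSeq start, only the summits at Zfp62, Zfp143, Zfp598 and Zfp689 were upstream. The rest of the 17 were downstream, so the near-equal split holds for the listed starts only. The other promoters were not measured from RefSeq starts.

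**Figure D3:**
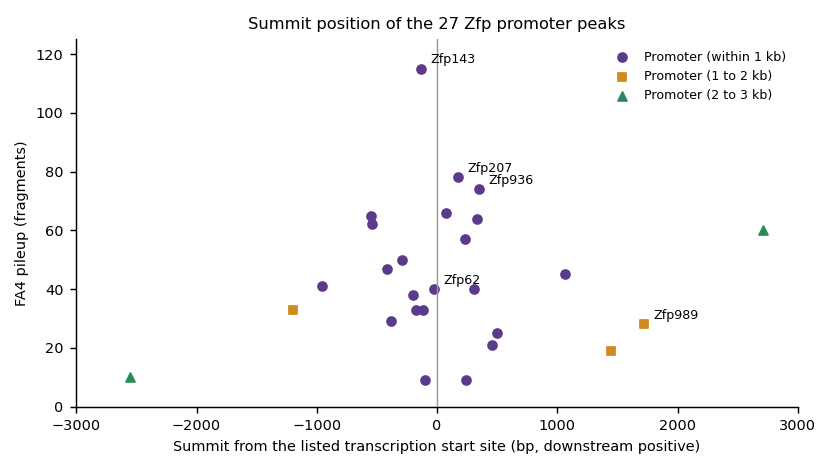
Position of each of the 27 Zfp promoter summits relative to the listed start site in bp (x axis, downstream positive) and its FA4 pileup in fragments (y axis). Purple circles are peaks within 1 kb, orange squares at 1 to 2 kb and green triangles at 2 to 3 kb, by the edge of the peak nearest the start. Of the summits 13 are downstream and 14 upstream, and the tallest, at Zfp143, is 131 bp upstream.

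Chromosome 7 held more Zfp peaks than any other chromosome. It carried 19 of the 43 peaks, and 11 of its 93 Zfp genes (11.8%, 6.05 to 20.2%) had a promoter peak, against 96 of 1937 other genes of the chromosome (4.96%, 4.03 to 6.02%). On the other chromosomes 10 of 302 Zfp genes (3.31%, 1.60 to 6.01%) had one, against 4.70% of other genes. Chromosome 7 was singled out after its values were seen, and neighbouring genes are not independent. No Zfp promoter peak was found on chromosome 2 (27 Zfp genes), chromosome 9 (20) or chromosome 6 (17), nor on several chromosomes with fewer Zfp genes. The intervals for chromosomes 2, 9 and 6 reach 12.8, 16.8 and 19.5%. They hold the shares of the other genes there, 3.82, 4.32 and 3.25%, so no lack of peaks is read from them.

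**Figure D4:**
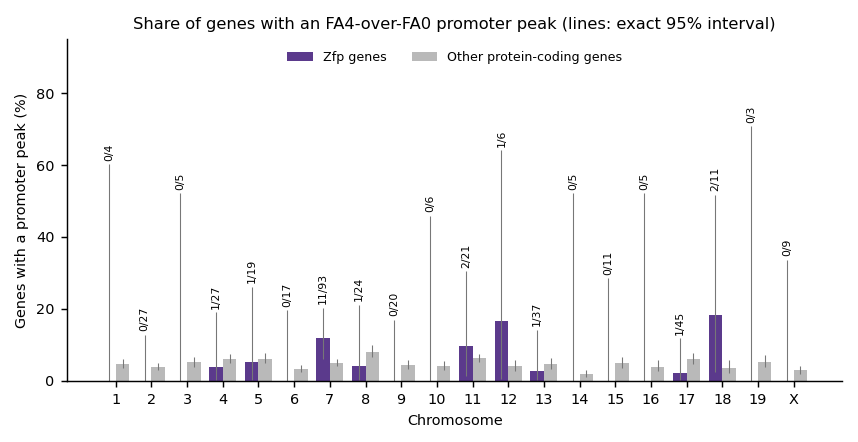
Share of annotated genes with a promoter peak, in percent, for Zfp genes (purple) and other protein-coding genes (grey) of each chromosome, with exact binomial 95% intervals as lines. Numbers above the bars give Zfp genes with a promoter peak over Zfp genes annotated. Chromosome 7 has 11 of 93, and the intervals on chromosomes with few Zfp genes are wide.

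Zfp genes inside and outside genomic clusters had promoter peaks at like shares. With a cluster taken as at least 4 annotated Zfp genes whose neighbouring starts lay at most 250 kb apart, RefSeq gave 21 clusters with 171 genes, 9 of the clusters on chromosome 7. A promoter peak was found at 9 of the 171 genes (5.26%, 2.43 to 9.76%) and at 12 of the 224 genes outside (5.36%, 2.80 to 9.17%). No member had a promoter peak in 15 of the 21 clusters. The largest, with 23 genes on chromosome 13, had no peak at all, nor had the clusters of 18 and 13 genes on chromosome 17. These are counts of clusters and not of genes, so they cannot be compared with the 4.73% of all protein-coding genes that had a promoter peak. At so low a share of genes many clusters would hold none, and no lack of peaks is read from them. How reads with several matches were placed is not given, so an absence of peaks among related copies is uncertain too.

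The cluster with the most peaks lay at chr7:27674661-28014210. It spans 0.34 Mb with 8 Zfp genes, and all 7 peaks within it were listed under Zfp genes. Zfp607b, Zfp59 and Zfp780b had promoter peaks, and Zfp626 a peak in its 3′ UTR. Zfp780b had 8.36 fragments in FA0 and 21 in FA4 (13.0 to 32.1), a fold of 2.35, and Zfp626 had 1.60 in FA0 and 12 in FA4. The levels thus ran over a wide range within the cluster, with the tallest, a Zfp607b promoter peak, at 26.97 in FA0 and 60 in FA4. No peak was listed under Zfp60, Zfp607a, Zfp974 or Zfp850. A second cluster on the chromosome, of 15 genes, had the promoter peak of Zfp568 and a peak listed under Zfp14 that lay in intron 9 of 9 of Zfp568, with 3.82 in FA0 and 17 in FA4. Zfp524 and Zfp865 lay in another cluster there, of 6 genes.

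Outside promoters the Zfp peaks were low. The median FA0 background of the 16 was 2.39 and the median FA4 pileup 12, with a fold of 3.66, against 1.70 in FA0, 11 in FA4 and a fold of 3.84 over 1274 such peaks of other genes. At 6 of the 16 (37.5%) the FA0 background was at the lowest value in the table, against 535 of the 1274 others (42.0%). Zfp536, a repressor of neuronal differentiation, was an exception. In its intron at chr7:37474974-37475428 there were 12.7 fragments in FA0 and 37 in FA4 (26.1 to 51.0), a fold of 2.78 and a −log10 q of 4.04. A second peak in the Zfp536 gene, listed under the antisense transcript 4930505M18Rik, had 1.60 in FA0 and 11 in FA4.

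Zfp710 had the tallest of these peaks, 6992 bp upstream of its start, with 19.8 fragments in FA0 and 44 in FA4 (32.0 to 59.1), a fold of 2.16. Zfp423, a cofactor in BMP signalling and of EBF proteins, had 1.60 in FA0 and 12 in FA4 (6.20 to 21.0) in intron 3 of 7. Zfp385b had the same pair of values in intron 1 of 9. Zfp521, a regulator of neural and blood progenitors, had 2.76 in FA0 and 12 in FA4 in intron 5 of 7, 253878 bp into the gene. With FA4 pileups of 12 the counting interval alone is wide (6.20 to 21.0), so these folds are weakly measured.

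The last group of distal peaks is given for completeness and was not picked by the naming rule. Zfp827, whose human counterpart recruits NuRD to telomeres, had 2.15 fragments in FA0 and 12 in FA4 in its intron. Zfp97 and Zfp960 had intergenic peaks with 4.54 and 3.34 in FA0 and 18 and 12 in FA4. The peaks listed under Zfp469, whose human counterpart is mutated in brittle cornea syndrome, and under Zfp90 lay in introns of other genes, each with 1.60 in FA0 and 10 in FA4. The peak listed under Zfp575 lay in an exon of another gene and within 1 kb of the start of Ethe1, and had 2.63 in FA0 and 12 in FA4. Zfp804b had the fewest fragments of all, with 1.60 in FA0 and 8 in FA4.

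**Figure D5:**
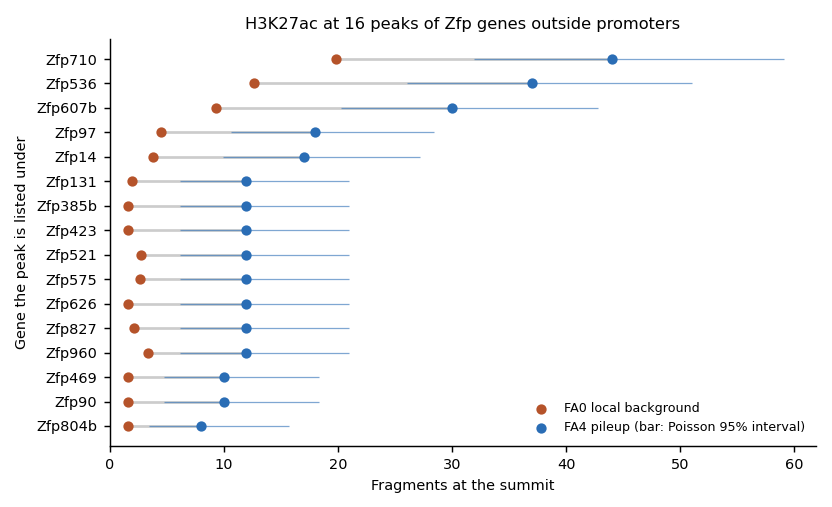
Level at the 16 Zfp peaks outside promoters, 1 line per peak, ordered by FA4 pileup, with fragments at the summit on the x axis. Orange points are the FA0 local background and blue points the FA4 pileup with its exact Poisson 95% interval. Zfp710 (44 in FA4), Zfp536 (37) and the Zfp607b intron (30) stand above the rest, which lie between 8 and 18.

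A promoter peak shared with a neighbour cannot be given to 1 gene. Among the 27 Zfp promoter peaks 3 (11.1%, 2.35 to 29.2%) lay within 1 kb of the start of another protein-coding gene, against 112 of 1154 (9.71%, 8.06 to 11.6%) at other promoters. They paired Zfp524 with Fiz1, Zfp646 with Zfp668 and Zfp131 with Gm46390. These counts are lower bounds, since start-site windows were at hand for 17492 of 21900 protein-coding genes. Conversely, peaks over Zfp genes were in part listed under others. Zfp296 shared its peak with Gemin7 (19.5 in FA0 and 45 in FA4, 441 bp from the Zfp296 start). Zfp33b had a summit 167 bp from its start that was listed as intergenic under Thoc2l (23.4 in FA0 and 48 in FA4). The tallest of them, in the annotated span of Zfp993 but 396519 bp from its start and in the promoter of Gm21411, under which it was listed, had 65.6 in FA0 and 182 in FA4, a fold of 2.75. These peaks were found by position and are not among the 43 Zfp peaks. Those listed under protein-coding genes (Gemin7, Thoc2l and Gm21411 here) are counted among the 2428 other peaks. The promoter peaks of Gemin7 and Gm21411 are also counted among the 1154 other promoter peaks.

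Promoter windows of Zfp genes were also read for common elements. Windows were available for 12 of the Zfp genes with a promoter peak and for 317 without. Of the 17 promoter peaks of these 12 genes, 2 overlapped the window and 7 had a summit within 500 bp of its start site. The windows thus describe RefSeq starts and mostly not the acetylated sequence itself. The CCAAT box was in 8 of the 12 (66.7%, 34.9 to 90.1%), against 48.9% of the 317, 41.7% of 836 other genes with a promoter peak and 39.0% of all 17492 windows. The ETS core was in 4 of 12 (33.3%, 9.92 to 65.1%), against 21.5%, 19.3% and 11.9% in the same sets. The GC box was in 5 of 12 (41.7%, 15.2 to 72.3%), against 44.2%, 63.0% and 46.3%. The YY1 core was in 3 of 12, against 8.83%, 11.96% and 5.41%, and the E-box in 2 of 12, against 6.94%, 9.21% and 7.90%. None of the 12 held TATAAA, the CRE TGACGTCA, the NRF1 core GCGCATGCG or the ZNF143 core ACTACAATT, which were in 13.3%, 2.34%, 2.41% and 0.55% of all windows. The median G+C content was 55.5% for the 12 windows, 54.3% for the 317, 60.7% for other genes with a promoter peak and 56.3% for all. With 12 windows each of these shares has an interval that holds the share of the 317.

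The machinery that KRAB proteins recruit was described beside them. Of 35 listed genes of the Trim28 and heterochromatin machinery, 8 (22.9%, 10.4 to 40.1%) had a promoter peak, against 4.73% of all protein-coding genes, and 10 had a peak of any class. The list was made with earlier results of these data known. Trim28, the KRAB co-repressor itself, had a pair of promoter peaks with 26.97 and 23.4 fragments in FA0 and 56 and 67 in FA4, folds of 2.04 and 2.79. Sumo2, a ubiquitin-like modifier, had 17.2 and 18.9 in FA0 and 45 and 64 in FA4 at its 2 peaks. Hdac1, a histone deacetylase, had 26.3 in FA0 and 67 in FA4, and Uhrf1, which guides maintenance of DNA methylation, 42.0 in FA0 and 81 in FA4. Dnmt1, the maintenance methyltransferase, was lower, with 4.02 in FA0 and 20 in FA4 (fold 4.18). Atrx had 8.59 in FA0 and 25 in FA4, and Cbx1 15.5 in FA0 and 35 in FA4. Cbx5 and Dnmt3a had peaks outside promoters only, and no peak was listed under Setdb1.

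Related zinc finger families gave small counts. Against 4.73% of all protein-coding genes, a promoter peak was found at 3 of 41 Zbtb genes, 2 of 16 Zscan genes, 3 of 17 Klf genes and 1 of 3 Gli genes. It was found at none of 11 Zkscan, 14 Prdm, 5 Zic, 4 Sall, 4 Egr, 5 Ikzf and 6 Zmym genes, nor at any of 12 genes with Sp symbols. Among families with other kinds of zinc finger it was found at 5 of 83 Rnf, 3 of 68 Trim, 1 of 16 Zc3h, 1 of 24 Zdhhc, 1 of 8 Zfyve and 1 of 6 Zmynd genes. For Zkscan genes 0 of 11 allows a share of up to 28.5% (exact binomial 95% interval), and for Prdm genes 0 of 14 allows up to 23.2%.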

How the data were processed

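H3K27ac ChIP-seq of Sv129 mESCs gave 1 IP and 1 input library per condition. Per the submitters' processing notes, bcl2fastq 2.17 made the reads, Bowtie 1.1.2 aligned them to mm10 and MACS2 2.1.0 called the peaks. The settings, the handling of reads with several matches and the library depth are not stated in any source used here. The authors deposited a table of 4088 peaks and a table of its 1538 promoter peaks. The deposited pileup is a signal in whole fragments at the summit. The deposited −log10 q-value is the peak caller's own, and its −log10 p was not used. The deposited fold ratio is pileup plus 1 over background plus 1, and the FA0 background was computed from it as (pileup + 1)/fold − 1. It is the peak caller's local estimate, not the FA0 pileup at the summit, and PCR-amplified fragments are not independent molecules. Unequal IP efficiency of the 2 IP libraries and the folate condition cannot be told apart.

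Members were taken by symbol and gene type. The members, lists, tests and alternatives were chosen with earlier results of these data known. Genes named in full were the 12 promoter peaks with the highest −log10 q, the 8 with the highest fold, the 6 peaks outside promoters with the highest −log10 q, genes with 2 or more peaks, genes of clusters with at least 3 promoter-peak genes, and 31 genes of known role. Others are named in the text as outside this rule. Symbols were matched to RefSeq GRCm38.p6 (35 of 36 member genes), whose start-site windows of 300 bases were used for motifs on both strands and for shared starts. Shares have Clopper-Pearson, counts exact Poisson and medians order-statistic intervals, all at 95%. The procedures were tested on simulated data. Alternatives were −log10 q of at least 2 or 3, folds from 3 upward, start sites within 1 kb, other gaps and distances, 1 peak per gene, no chromosome 8, and no shared starts. An FA0 background of at least 5 and no chromosome 7 were added after seeing the data. Input libraries were not analysed here, and 1 gene of the co-repressor list is not reported here by name. The work was done in Python 3.11.15 with scipy 1.17.1, numpy 2.4.6, pandas 2.3.3 and, for figures, matplotlib 3.10.9.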

Additional observations from a re-analysis of the deposited data

How the results depend on the processing

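Of 59 alternative values of the Zfp results and the co-repressor list, 48 stayed within their main interval or within 1.5 times the main count. That count sets each value against its own main value, not against the other genes. With a −log10 q of at least 3 there were 20 Zfp peaks in place of 43, 11 Zfp genes with a promoter peak in place of 21, and promoter peaks at 1.75% of genes inside clusters, against 3.57% outside. With a fold of at least 3 there were 21 peaks, a promoter share of 38.1% (34.5% for other genes) and a median promoter pileup of 22 fragments (15 for others). Promoter peaks were then at 4 of 395 Zfp genes in place of 21, and at 563 other protein-coding genes in place of 1015. The Zfp count thus fell further than that of the other genes, on 4 genes. Promoter peaks were at 0.58% of clustered genes, against 1.34% outside, and there was 1 shared start. Counting peaks of any class gave 35 genes. Leaving out chromosome 7, an alternative added after seeing the data, gave 10 genes with a promoter peak. Of 36 alternative counts of the other zinc finger and RING families, 10 moved by more than 1.5 times, 6 up and 4 down. No paired analysis was possible because there is a single library per condition, which also leaves no replicate to omit. The planned description of finger number and KRAB boxes in the proteins, with its alternative, was not run. Depth limits the low peaks most: with an FA4 pileup of 8 to 12 fragments the counting error is large, and the FA0 background is an estimate without an error of its own.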
